A study of Mus musculus with 2 samples.

Results

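CG methylation of the 4 Hox gene clusters was compared between primary osteoblasts of wild type (WT) mice and of mice lacking Tet1, Tet2 and Tet3 in limb and skull mesenchyme. The 38 genes examined were chosen by name and lie in HoxA on chromosome 6 (10 genes), HoxB on chromosome 11 (10 genes), HoxC on chromosome 15 (9 genes) and HoxD on chromosome 2 (9 genes). They are 38 of the 21903 protein-coding genes that had at least 20 calls in each library, where a call is 1 read over 1 cytosine of a CG. The cells came from the skull vault of 3-day-old C57BL/6 mice and were cultured for 3 days. The knockout animals (TCKO) carried Prx1-Cre and floxed alleles of all 3 genes (Tet1fl/fl Tet2fl/fl Tet3fl/fl). Prx1-Cre is active in the mesenchyme of the limb bud and of part of the skull, so cells of other origin in the culture keep their Tet genes. Whether the WT animals carried floxed alleles or Cre is not given in the sources used here. Whole genome bisulfite sequencing (WGBS) was done on 1 library per genotype, so a p-value below compares 2 libraries and not 2 genotypes, and no difference has a replicate check. Bisulfite reads do not separate 5-methylcytosine (5mC) from its oxidised form 5-hydroxymethylcytosine (5hmC), and a level here is the share of calls that were either.

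Hox genes encode homeodomain transcription factors that give cells their identity along the body axis and along the limb. Genes with low numbers lie at one end of a cluster and act towards the head, those with high numbers lie at the other end and act towards the tail and the tip of the limb, and genes of one number in different clusters are paralogues. The clusters are rich in CpG islands, are known as targets of Polycomb repression, and lie in long stretches with little DNA methylation, called methylation valleys. TET enzymes oxidise 5mC to 5hmC and further, a step of active demethylation, and the borders of such valleys are known as places where they work. Bone of the skull vault forms from tissue known for low Hox expression, and RNA was not analysed here.

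The sequences shown first are those of promoter stretches that were low in both libraries and of places with a local difference. The latter are a CG-DMR, and the 200 bp with the most calls in 4 tiles of 1 kb that passed the test. All sequences are read from the GRCm38 genome, 5′ to 3′, with every CpG, the site that was measured, in capitals. RefSeq promoters (GRCm38.p6) were at hand for 22 of the 38 genes, and the 250 bases before the start are given for 1 gene in each of 3 clusters, that with the most calls there among the promoters clear of UTRs.

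Hoxa11 promoter, chr6:52245811-52246060, minus strand: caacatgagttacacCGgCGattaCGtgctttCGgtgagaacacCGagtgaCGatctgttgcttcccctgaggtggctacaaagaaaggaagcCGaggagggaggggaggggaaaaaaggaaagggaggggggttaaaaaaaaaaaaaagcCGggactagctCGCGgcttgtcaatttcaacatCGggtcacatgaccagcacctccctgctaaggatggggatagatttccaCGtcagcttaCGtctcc

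Hoxb8 promoter, chr11:96281655-96281904, plus strand: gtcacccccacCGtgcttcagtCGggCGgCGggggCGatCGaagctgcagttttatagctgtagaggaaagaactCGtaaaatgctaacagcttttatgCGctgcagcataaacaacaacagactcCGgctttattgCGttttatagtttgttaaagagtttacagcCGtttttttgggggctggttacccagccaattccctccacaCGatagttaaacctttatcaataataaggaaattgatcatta

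Hoxd8 promoter, chr2:74704365-74704614, plus strand: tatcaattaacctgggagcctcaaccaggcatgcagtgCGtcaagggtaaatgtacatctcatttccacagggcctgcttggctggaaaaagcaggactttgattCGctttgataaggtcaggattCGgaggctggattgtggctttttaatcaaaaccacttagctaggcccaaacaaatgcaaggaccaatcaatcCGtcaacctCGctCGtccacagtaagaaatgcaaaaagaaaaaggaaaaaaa

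The Hoxa11 promoter overlaps an exon of a noncoding transcript, has 13 CpGs and was methylated in 3.92% of 51 calls in WT and 2.78% of 108 calls in TCKO. The Hoxb8 promoter has 12 CpGs and read 2.91% of 103 calls and 8.14% of 86 calls, and the Hoxd8 promoter has 6 and read 5.13% of 39 calls and 11.2% of 89 calls. All 3 intervals of the difference over these 250 bases include 0. The whole 2 kb upstream of Hoxd8 went the other way, with 19.6% in WT and 14.6% in TCKO. The next 5 stretches are sites of local gain and loss, to which the tests further down return.

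HoxD, CG-DMR beyond Hoxd1, chr2:74774601-74774800, plus strand: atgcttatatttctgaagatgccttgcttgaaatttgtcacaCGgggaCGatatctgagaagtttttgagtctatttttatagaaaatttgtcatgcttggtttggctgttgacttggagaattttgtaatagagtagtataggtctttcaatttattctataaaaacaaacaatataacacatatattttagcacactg

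HoxD, gain between Hoxd3 and Hoxd1, chr2:74750601-74750800, plus strand: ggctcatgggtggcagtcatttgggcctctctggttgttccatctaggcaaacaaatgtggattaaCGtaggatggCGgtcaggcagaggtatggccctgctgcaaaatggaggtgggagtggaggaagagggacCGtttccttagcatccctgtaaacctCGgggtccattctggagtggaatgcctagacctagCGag

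HoxB, gain upstream of Hoxb2, chr11:96348601-96348800, plus strand: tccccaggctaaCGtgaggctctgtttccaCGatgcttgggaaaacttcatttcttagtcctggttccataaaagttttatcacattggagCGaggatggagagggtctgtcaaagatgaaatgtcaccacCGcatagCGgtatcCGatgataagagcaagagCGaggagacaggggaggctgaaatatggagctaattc

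HoxC, gain inside Hoxc6 and Hoxc5, chr15:103002001-103002200, plus strand: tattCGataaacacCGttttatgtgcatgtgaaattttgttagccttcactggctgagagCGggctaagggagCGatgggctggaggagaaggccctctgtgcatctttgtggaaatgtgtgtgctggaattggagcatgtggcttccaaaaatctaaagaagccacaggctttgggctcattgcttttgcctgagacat

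HoxA, loss upstream of Hoxa10, chr6:52241601-52241800, minus strand: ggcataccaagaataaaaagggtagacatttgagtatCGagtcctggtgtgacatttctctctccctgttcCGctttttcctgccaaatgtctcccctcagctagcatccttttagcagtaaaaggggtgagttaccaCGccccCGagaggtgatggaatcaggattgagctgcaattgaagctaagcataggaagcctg

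The second of these lies in an exon of a noncoding transcript, and the others lie outside exons. They hold 2, 5, 7, 4 and 4 CpGs, fewer than the promoters of Hoxa11 and Hoxb8. Levels in WT and TCKO were 35.7% and 76.7% in the first, 19.6% and 35.8% in the second, 6.90% and 28.9% in the third, 61.5% in TCKO in the fourth (5 of 20 calls in WT), and 22.2% and 6.67% in the fifth. In the fifth, with 27 and 30 calls, the interval of the difference includes 0, and the test was passed by its whole tile.

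The libraries held 261062118 calls in WT and 223581206 in TCKO, or 5.97 and 5.11 per CG cytosine of the reference, and the level of all calls was 70.2% and 76.3%. The knockout label was checked by the calls in Tet exons: exon 11 of Tet1 had 62 in WT and 1 in TCKO, exon 9 of Tet2 had 7 and 0, and exon 9 of Tet3 had 14 and 0. The next exon of each gene kept some calls in TCKO, 95 and 23 in Tet1, 155 and 46 in Tet2, and 19 and 4 in Tet3. Within 1 kb of the starts of 7 osteoblast and mesenchyme genes, among them Runx2, Col1a1 and Twist1, levels ran from 0.101% to 32.1% in WT, against 70.8% to 78.4% at 3 blood genes, 49.5% to 78.5% at 3 endothelial genes, 31.6% to 65.2% at 3 muscle genes and 12.6% to 59.8% at 3 epithelial genes. The medians of the blood and endothelial genes were higher in TCKO than in WT (83.0% against 75.4%, and 84.7% against 64.9%), as was that of the osteoblast genes (29.3% against 8.54%). The part of cell composition in the results below was not tested. Intervals are 95% Wilson intervals for a level and Newcombe intervals for a difference, and cover counting error only.

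The Hox genes were among the least methylated genes of both libraries, and they hardly differed between them. Over the windows from 2 kb upstream of a gene's start to its end, the median level of the 38 genes was 6.78% in WT and 6.60% in TCKO, and the median difference, TCKO minus WT, was +0.24 percentage points. Over all 21903 genes the medians were 67.7% and 73.8%, and the median difference was +5.72 points. All 38 Hox windows were within the lowest 5% of genes by WT level, from 2.32% at Hoxc12 to 30.5% at Hoxd1. The difference was below the median of all genes in 37 of 38 windows, and 32 were within 2 points of 0. The level was higher in TCKO in 20 windows and lower in 18, whereas 85.1% of all genes were higher.

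The windows were tested by Fisher's exact test (2-sided), with p-values adjusted after Benjamini and Hochberg across all genes. Of the 38, 3 windows were higher in TCKO at an adjusted p under 0.05, where the share of all genes is 66.5%. None was lower, where the share is 2.80%. No Hox window was higher by 10 points or more, and 14.6% of all genes were. Without adjustment, the interval excluded 0 in 4 windows above and 2 below. The share of all genes by this interval was not computed, so these counts have no background to be read against.

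**Figure D1:**
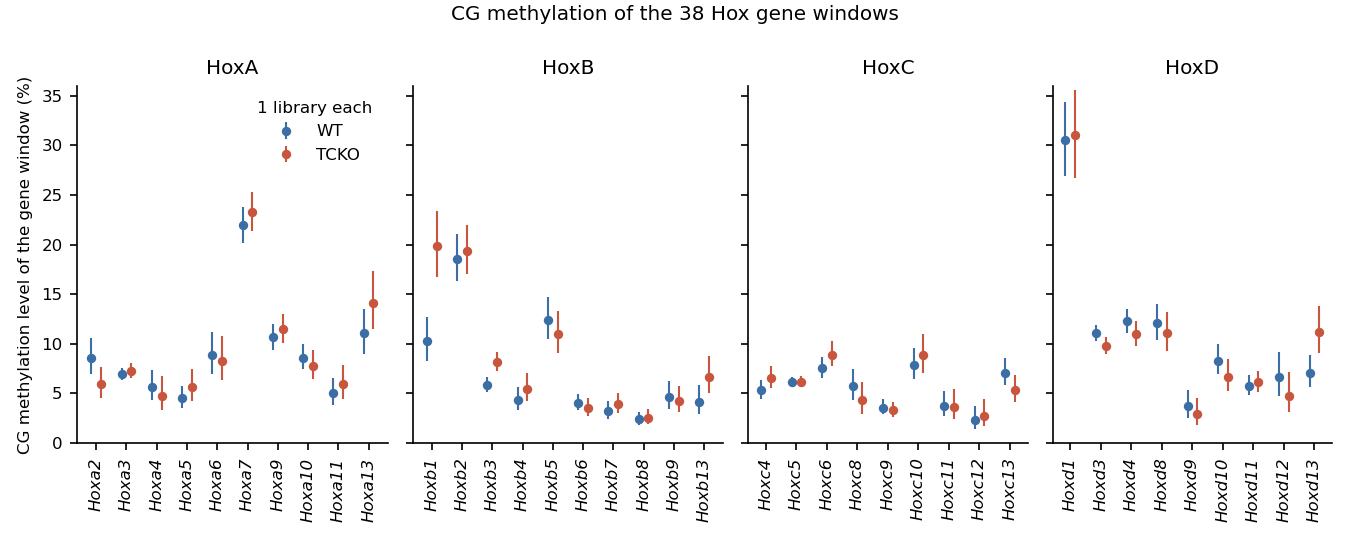
CG methylation level in percent (axis) of each of the 38 Hox gene windows in the WT and TCKO libraries, by cluster, with 95% Wilson intervals for counting error as bars. Nearly all windows sit under 15% in both libraries with overlapping bars, and Hoxb1 stands out with 10.3% in WT and 19.9% in TCKO.

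A low starting level is shared with other genes, so the Hox windows were set beside those with a similar one. Among all genes, 308 windows (1.41%) were at or below 15% in WT, and 35 of the 38 Hox windows were. The median difference was +1.20 points over the 308 and −0.0065 over the 35 Hox windows, which are among the 308. Of the 308, 97 were higher in TCKO by the same test and 24 by at least 10 points, against 3 and 0 of the Hox windows. Windows of neighbouring Hox genes share bases: 24 of the 38 overlap that of another. That of Hoxc5 runs for 52.0 kb, where the gene span of HoxC is 115.75 kb. Counting each cytosine once, the union of the windows read 7.74% of 56340 calls in WT and 8.05% of 45263 calls in TCKO, a difference of +0.31 points (−0.025 to 0.643, p = 0.0712, 2-sided Fisher exact test).

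**Figure D2:**
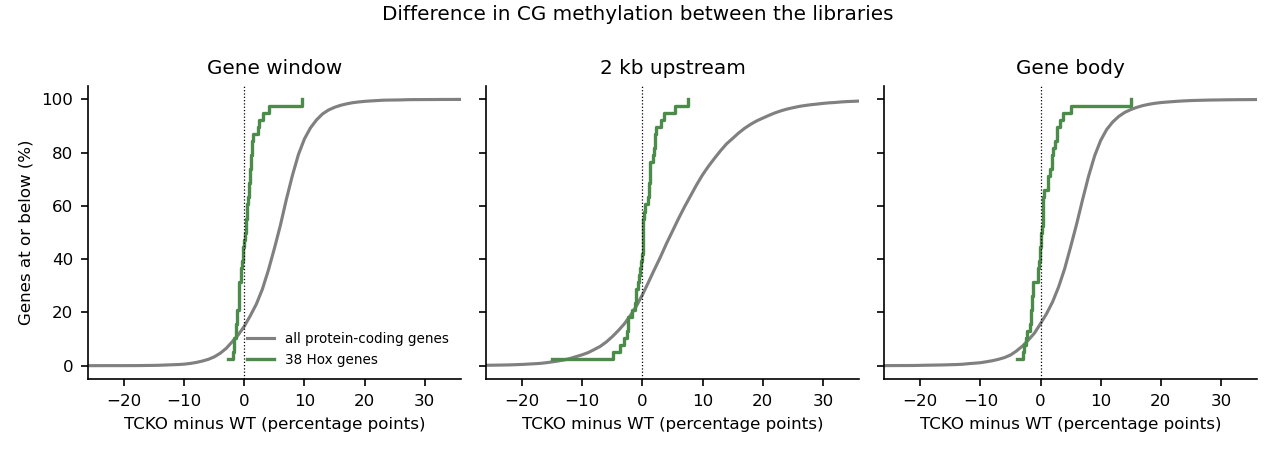
Cumulative share of genes (vertical axis, percent) against the TCKO minus WT difference in percentage points (horizontal axis) for windows, 2 kb upstream parts and gene bodies, with all protein-coding genes and the Hox genes as separate lines. The Hox line rises steeply near 0 (medians +0.24, +0.12 and +0.19 points), with its median to the left of that of the line of all genes (+5.72, +4.89 and +5.66).

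The depth behind a window was 499 to 8923 calls in WT (median 1211) and 416 to 7081 in TCKO (median 959). It was lower per cytosine than over the genome, with a median of 3.07 and 2.55 calls. Windows with more CpGs had fewer calls per cytosine (Pearson r = −0.625, Spearman rho = −0.615 over 38 windows, which share bases and libraries). The difference itself had no clear relation to CpG density (r = −0.0656, rho = 0.0178) or to the WT level (r = 0.0570, rho = −0.0704), and the levels of the libraries followed each other closely (r = 0.938, rho = 0.901).

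Of the genes that act towards the head, Hoxb1 had the largest difference of all 38. Hoxb1, known for its part in patterning the hindbrain, was methylated in 10.3% of 739 calls in WT and 19.9% of 544 calls in TCKO, a gain of 9.57 points (5.62 to 13.6, adjusted p = 3.93e-06, Benjamini-Hochberg, Fisher exact test). The gain lay in the gene more than upstream of it: the body read 8.17% and 23.1%, and the 2 kb upstream 12.2% and 17.7%. It was present on both strands, +6.43 points on the plus and +14.9 on the minus strand. In steps of 1 kb, chosen after the window was seen, the first 1 kb of the gene stayed low (0.826% of 121 calls and 5.41% of 37), and the rest up to the gene end went from 11.97% to 26.8% (7.21 to 22.6 points). Between 2 kb and 1 kb upstream the level was 7.41% in WT and 20.9% in TCKO.

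Hoxb3 and Hoxd13 were the other windows that passed. Hoxb3, a gene of hindbrain and pharyngeal patterning, read 5.84% of 3769 calls and 8.12% of 3140 calls (+2.28 points, 1.08 to 3.51, adjusted p = 0.000434, same exact test). Hoxd13, which shapes the digits, read 7.09% of 1001 calls and 11.2% of 696 calls (+4.11 points, 1.35 to 7.05, adjusted p = 0.00642, same exact test). Each was higher on both strands, Hoxb3 by 2.49 and 2.197 points and Hoxd13 by 4.74 and 3.05. With cytosines of at least 4 calls in each library alone, Hoxd13 no longer passed, Hoxd1 did, and Hoxb1 and Hoxb3 still did.

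In HoxA the largest difference was at Hoxa13, a gene of the hand and foot plate, with 11.1% in WT and 14.2% in TCKO (+3.104 points, −0.543 to 6.90, adjusted p = 0.137, Fisher exact test). The smallest was at Hoxa2, which patterns the second pharyngeal arch, with 8.59% and 5.91% (−2.68 points, −5.10 to −0.253, adjusted p = 0.0513, exact test). In HoxB the smallest was at Hoxb5, with 12.4% and 10.97% (−1.46 points). HoxC held no window that passed in either direction: its differences ran from −1.75 points at Hoxc13 (7.06% and 5.31%), a gene of hair and nail, to +1.35 at Hoxc6 (7.54% and 8.89%). In HoxD the lowest was Hoxd12, with 6.61% and 4.74% (−1.87 points), next to Hoxd13, which had the highest. By these intervals only Hoxb1, Hoxb3, Hoxd13 and Hoxb13 lay above 0, and Hoxa2 and Hoxd3 below.

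At the low end, 11 of the 38 windows were under 5% in WT. Hoxb8, of the thoracic region, read 2.38% of 1932 calls in WT and 2.54% of 1692 in TCKO, an interval of −0.855 to 1.21 points. Hoxc9, also of the thorax, read 3.57% of 2298 calls and 3.29% of 1977 calls (−1.37 to 0.835 points), and Hoxb7 3.23% and 3.92%. At these deeply covered genes a gain the size of the median over all genes lies outside the interval. Over the 308 windows at or below 15% in WT the median was +1.20 points. That value lies inside the intervals of Hoxb8 and Hoxb7 (−0.661 to 2.05) and outside that of Hoxc9.

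Of the 38 windows, 3 stood above 15% in both libraries. Hoxd1 read 30.5% in WT and 31.0% in TCKO, Hoxa7 21.9% and 23.3%, and Hoxb2 18.6% and 19.3%. In Hoxa7 the methylation lay upstream: its 2 kb upstream, 49.2% and 50.4%, was the most methylated of the 38, while the body read 15.4% and 14.9%. From the principal start of Hoxa7, which lies inside the gene, the 2 kb upstream read 17.3% and 22.0% and the window 11.3% and 10.8%. In Hoxd1 the window level was even, and local differences, looked at after the window was seen, went in opposite directions. The 1 kb upstream of its start went from 11.03% of 136 calls in WT to 1.83% of 109 in TCKO, and the first 1 kb of the gene read 6.00% and 2.80%. From there to the gene end the level went from 54.2% of 179 calls to 80.6% of 93 calls, a gain of 26.5 points (14.8 to 36.4) over 18 CpGs.

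**Figure D3:**
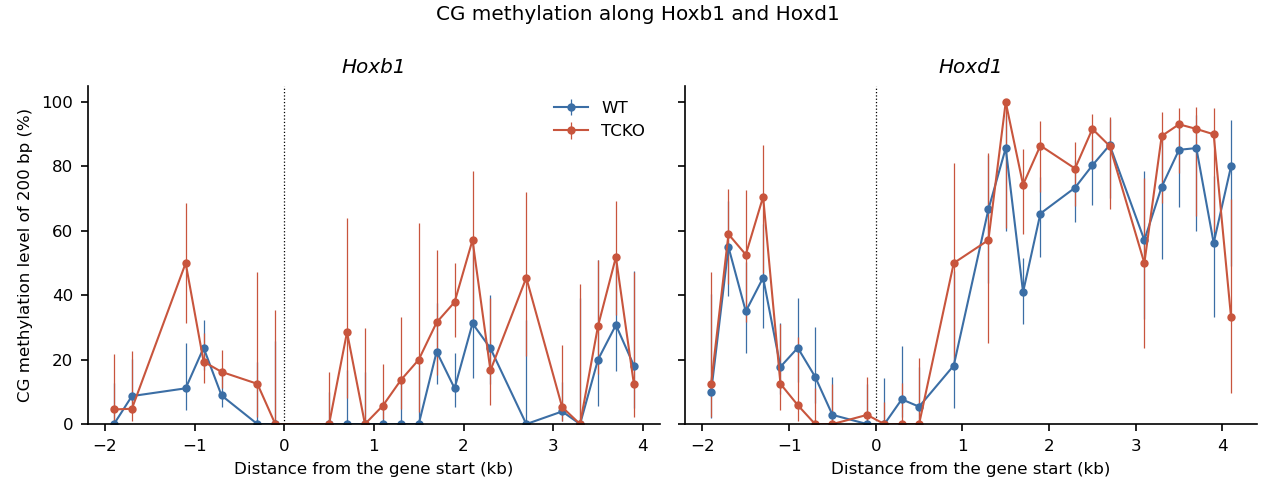
CG methylation level in percent in consecutive bins of 200 bp along Hoxb1 and Hoxd1 (distance from the gene start in kb) in the WT and TCKO libraries, with 95% Wilson intervals. Pooled over the first 1 kb both genes are low in both libraries, though single bins of few calls are not, and pooled from there to the gene end the TCKO level is higher (26.8% against 11.97% at Hoxb1, 80.6% against 54.2% at Hoxd1).

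Promoters, taken as the 2 kb upstream, and gene bodies gave a similar picture with single exceptions. The median Hox promoter read 5.43% in WT and 5.69% in TCKO (+0.12 points), against +4.89 over 21662 genes, and 32 of 38 were at or below 15% in WT. By the test 1 was higher in TCKO, against 25.0% of all genes, and 1 was lower, against 2.12%. The higher one was Hoxb2, of the hindbrain and second arch, with 25.7% of 506 calls and 33.3% of 417 calls (+7.64 points, 1.74 to 13.5, adjusted p = 0.0491, Fisher exact test). The lower one was Hoxa10, a gene of the uterus and of the thigh bone, with 22.2% of 158 calls and 7.07% of 99 calls (−15.1 points, −23.0 to −6.15, adjusted p = 0.00897, same exact test). The loss at Hoxa10 was present on both strands, by −20.8 and −11.9 points, and its whole window read 8.61% and 7.76%.

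The median Hox body read 6.10% in WT and 6.81% in TCKO (+0.19 points, against +5.66 over 21625 genes). By the test 4 bodies were higher, where 64.4% of all genes were: Hoxb1, Hoxb3, Hoxd13 (8.56% and 13.6%, adjusted p = 0.0206, Fisher exact test) and Hoxb4 (3.32% and 6.10%, adjusted p = 0.0334). Of these only Hoxb1 was higher by at least 10 points, as were 3211 of the 21625 genes. Lower were 2 bodies, where 2.79% of all genes were: Hoxc13 (8.99% and 6.08%, adjusted p = 0.0377) and Hoxd3 (11.8% and 10.4%, adjusted p = 0.0451, both by the exact test). With cytosines of at least 4 calls in each library, the bodies of Hoxc13, Hoxd3 and Hoxd13 no longer passed, and those of Hoxd1 (higher) and Hoxa2 (lower) did.

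A gene's start here is the outermost annotated one, and 12 of the 38 genes have their principal transcript start more than 1 kb from it. Upstream of the principal starts WT levels ran from 1.92% to 33.7% and the median difference was −0.18 points. Neither Hoxb2 (33.7% and 34.2%) nor Hoxa10 (20.6% and 17.2%) passed the test there. Hoxb3 was higher (2.84% of 282 calls and 9.44% of 180, adjusted p = 0.0148, Benjamini-Hochberg, Fisher exact test), and Hoxd3 was lower (6.59% and 0.752%, adjusted p = 0.0362). Among bodies taken from the principal start, Hoxb3 (adjusted p = 0.111) and Hoxd3 (adjusted p = 0.920) no longer passed the exact test, Hoxa10 was higher (4.11% and 6.90%, adjusted p = 0.0400) and Hoxd4 lower (7.87% and 4.85%, adjusted p = 0.0287). With principal starts the median difference of the windows was −0.41 points, and their union differed by +0.092 points (−0.289 to 0.476).

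From the first to the last of the 38 genes in each cluster, with 20 kb added on either side, 3 of the 4 clusters were slightly higher in TCKO. HoxA went from 13.6% to 15.01% (+1.43 points, p = 6.13e-05, 2-sided Fisher exact test), HoxB from 20.4% to 21.6% (+1.16 points, p = 0.000421), and HoxD, at 19.2% in WT, was higher by 0.80 points (p = 0.0420). HoxC read 10.01% and 10.2% (+0.16 points, p = 0.616, exact test), and was the least methylated of the 4. The gene spans themselves were lower in level, and in difference except in HoxC: 9.08% and 9.67% in HoxA, 18.9% and 19.6% in HoxB, 6.05% and 6.34% in HoxC, and 13.8% and 14.2% in HoxD.

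The 20 kb flanks of the 4 clusters together differed by more than the spans. Over the clusters the spans went from 12.9% to 13.6% (+0.75 points) and the flanks from 29.6% to 31.6% (+2.02 points), and the excess of the flanks was 1.28 points (0.282 to 2.27). It was 2.49 points in HoxA and 2.44 in HoxB, with intervals above 0, and 0.71 in HoxD and −0.44 in HoxC, with intervals that include 0. In HoxB and HoxD the sides were unlike. Beyond Hoxb1 the level was 54.3% in WT and 60.2% in TCKO and beyond Hoxd1 70.5% and 75.04%, whereas beyond Hoxb13 it was 6.39% and 7.03% and beyond Hoxd13 9.21% and 8.92%. Both sides of HoxC differed by less than 1 point. The excess depended on the width of the flanks: it was 0.27 points with 10 kb, with an interval that includes 0, and 4.31 points with 50 kb (3.57 to 5.05).

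**Figure D4:**
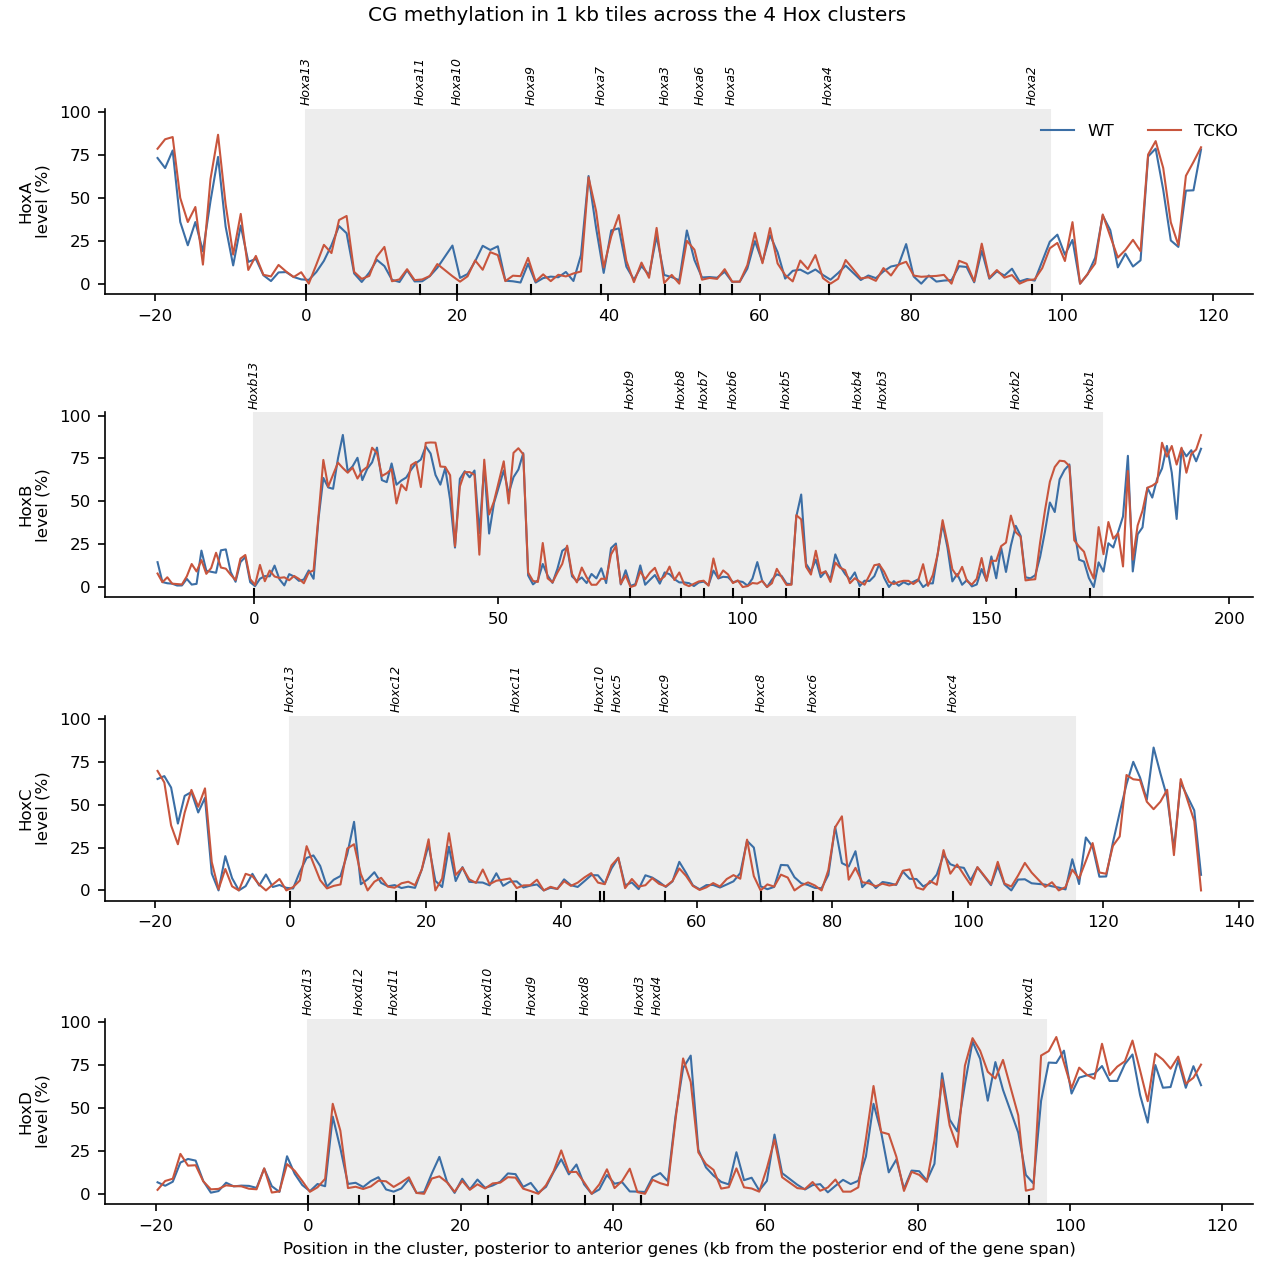
CG methylation level in percent in 1 kb tiles along each cluster, in kb from the posterior end of the gene span, in the WT and TCKO libraries, with gene starts marked and the span shaded. The lines of the 2 libraries run together at low levels through most of each span, and methylated stretches lie between Hoxb13 and Hoxb9 (36.7% and 36.5% on average) and beyond Hoxb1 and Hoxd1.

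Genes of groups 1 to 4 (anterior), 5 to 8 (middle) and 9 to 13 (posterior) were pooled to compare the ends of the clusters. Anterior windows went from 8.78% to 9.40% (+0.62 points), middle windows from 7.65% to 7.89% (+0.24) and posterior windows from 6.51% to 6.61% (+0.10). Windows of different classes share bases. With principal starts the differences were +0.52, −0.21 and +0.10 points, so the order of the classes was not kept. Anterior minus posterior was +0.52 points, with an interval from −0.253 to 1.29, so no difference between the ends was detectable at this depth. The clusters did not share a direction: it was +1.92 points in HoxB (0.107 to 3.72), +1.61 in HoxC, −0.83 in HoxA and −1.44 in HoxD, and of these the interval excluded 0 in HoxB alone. In HoxB all 4 anterior genes were higher in TCKO, and their windows together went from 7.97% to 10.7% (+2.743 points, 1.71 to 3.78). In HoxD the anterior windows went from 12.9% to 11.6% (−1.37 points). Pooled, the middle genes of HoxA, Hoxa5 to Hoxa7, went from 14.2% to 16.4% (+2.24 points, 0.551 to 3.95). Each of these 3 windows alone differed by less, from −0.63 to +1.36 points, and none passed the test. The pooled calls were not spread alike over the genes in both libraries. Hoxa5, at 4.50% in WT, gave 1379 of 3988 calls in WT and 804 of 3073 in TCKO. The part of this spread in the pooled difference was not tested.

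Across the 13 paralogue groups, the interval excluded 0 in the first and the last. Group 1, Hoxb1 and Hoxd1, went from 19.2% to 24.7% (+5.47 points, 2.04 to 8.95), and group 13 from 7.25% to 8.68% (+1.43 points, 0.136 to 2.76). Single genes of a group were unlike. In group 1, Hoxb1 differed by +9.57 points and Hoxd1 by +0.48. In group 13, Hoxd13 (+4.11), Hoxa13 (+3.10) and Hoxb13 (+2.50) were higher, and Hoxc13 was lower (−1.75). The other 11 groups lay within 1 point of 0.

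Methylation valleys were defined as runs of at least 5 kb of 1 kb tiles at or below 15% in the calls of both libraries together. The 4 regions held 27 of them over 333 kb, and 32 of the 38 genes start in one. Together they read 4.72% in WT and 5.05% in TCKO (+0.33 points, 0.0740 to 0.596). Of the 27, 16 were higher in TCKO and 11 lower, from −2.27 to +3.17 points. The longest, 36 kb from Hoxb5 to Hoxb9, read 3.84% and 3.87%.

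The edges of the valleys were compared with their cores. Within 2 kb of an end the difference was +0.23 points (5.48% and 5.71%), and in the core it was +0.39 points (4.38% and 4.77%). Edge minus core was −0.17 points (−0.754 to 0.427), an interval that includes 0. Many of the ends face another valley across a gap of 1 kb, and the first valley of HoxB starts where the region was cut. By distance from a valley, levels outside ran from 12.1% to 24.7% in WT. The comparison is therefore not one of borders with highly methylated DNA. Both libraries enter the definition, so a tile at the border that gains methylation can leave the valley. With valleys drawn from the WT library alone, edge minus core was +0.21 points (−0.377 to 0.796). In steps of 1 kb, the level was 24.7% in WT and 25.5% in TCKO just outside a valley, 6.496% and 6.76% in the first 1 kb inside, and 4.36% and 4.45% in the next.

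Within classes of level, the Hox tiles differed less between the libraries than those of the genome in 3 of 4 classes. The 1 kb tiles of the genome and of the Hox regions were grouped by their level in both libraries together. Tiles at or below 15% made up 63.6% of the 623 Hox tiles and 1.16% of all tiles, and their pooled difference was +0.18 points in the Hox regions (−0.0637 to 0.428) and +2.03 in the genome. Tiles above 15% and up to 50% differed by +2.27 points in the Hox regions (1.19 to 3.36) and by +10.4 in the genome, and tiles from 50% to 75% by +3.08 (1.61 to 4.54) and +8.07. In the highest class, 28 Hox tiles differed by +3.63 points (1.79 to 5.45), an interval that holds the genome's +4.45. The clusters were not alike within a class. In the tiles from 50% to 75%, HoxA differed by +7.89 points (3.11 to 12.6) and HoxD by +5.96 (2.88 to 9.01), intervals that hold the value of the genome, while HoxB differed by +2.29 (0.334 to 4.23) and HoxC by −1.89 (−6.10 to 2.32).

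**Figure D5:**
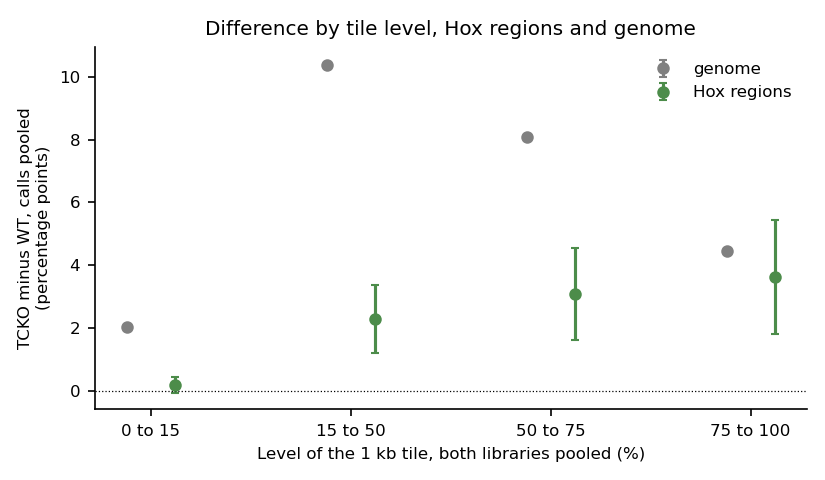
Pooled TCKO minus WT difference in percentage points of 1 kb tiles, in 4 classes of level, for the genome and the Hox regions, with 95% intervals for counting error. The Hox values lie below those of the genome in the 3 lower classes (+2.27 against +10.4 points from 15% to 50%) and near it in the highest.

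The same was seen by CG content. In 200 bp bins with 4 to 7 CG cytosines the median difference was +1.03 points in the Hox regions and +4.75 in the genome, in those with 8 to 15 it was +0.79 and +4.81, and in those with 16 or more −0.21 and +2.204.

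Differentially methylated regions (CG-DMRs) were called as bins of 200 bp, with at least 4 CG sites and a mean of 4 reads per cytosine, that differed by more than 40 points with an adjusted p under 0.05. Of the 697 bins that could be tested in the Hox regions, 2 were hyper CG-DMRs (0.287%), where the share of all testable bins is 2.86%. None was a hypo CG-DMR, where the share is 0.0350%. Both lay by Hoxd1. That at chr2:74764601-74764800, in an exon of Hoxd1, went from 22.6% of 62 calls in WT to 66.7% of 30 calls in TCKO (adjusted p = 0.00222, Benjamini-Hochberg, Fisher exact test). That at chr2:74774601-74774800, outside genes and 11.7 kb beyond the start of Hoxd1, went from 35.7% of 28 calls to 76.7% of 43 calls (adjusted p = 0.0203, exact test). Its sequence is shown above, and the difference comes from its 2 CpGs.

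Tiles of 1 kb were tested in addition after the gene windows had been seen. Of 623 tiles, 10 were higher in TCKO by at least 10 points (1.61%, with 11.0% in the genome), and 2 were lower by as much (0.321%, with 0.302% in the genome). At any size of difference, 10 passed the test as higher and 6 as lower, with 262383 and 7359 of 2325730 tiles in the genome. In HoxA 2 were higher and 4 lower. Of the 10, 6 lay inside a gene span and 4 in a flank, 5 of the 10 were in HoxB, and all 16 tiles with an adjusted p under 0.05 had one direction on both strands. Tiles were called on the calls of both strands pooled, so a shared direction is no separate check. The median difference of a tile was +0.52 points in the Hox regions and +4.71 in the genome.

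The called tiles named here were chosen after their values were seen. Among all called tiles, the largest gain, +31.7 points, was beyond Hoxb1 at chr11:96383001-96384000, from 39.7% of 63 calls to 71.4% of 42 calls. By strand this gain was uneven, +4.28 points on the plus and +42.7 on the minus strand. The largest loss, −19.3 points, was between Hoxb13 and Hoxb9 at chr11:96212001-96213000, from 88.7% of 115 calls to 69.4% of 49 calls. This loss was uneven too, −4.55 points on the plus and −23.0 on the minus strand. Between Hoxd3 and Hoxd1, chr2:74750001-74751000 went from 17.5% of 160 calls to 31.2% of 154 calls (+13.7 points, adjusted p = 0.0485, exact test). Upstream of Hoxb2, chr11:96348001-96349000 went from 8.79% of 239 calls to 25.9% of 189 calls (+17.1 points, adjusted p = 9.18e-05, Fisher exact test). In the second part of Hoxb1, chr11:96367001-96368000 went from 14.4% to 34.96% (+20.6 points, adjusted p = 0.00194, exact test). In the stretch shared by Hoxc5 and Hoxc6, chr15:103002001-103003000 went from 15.9% of 69 calls to 43.2% of 81 calls (+27.3 points, adjusted p = 0.00554, exact test), the only tile called in HoxC. It lies away from the ends of its gene span, whereas the gains in Hoxb1 and Hoxd1, also inside their spans, lie at the anterior ends. The tile upstream of Hoxa10, chr6:52241001-52242000, went from 22.2% of 108 calls to 4.35% of 69 calls (−17.9 points, adjusted p = 0.0135, exact test), and that over the start of Hoxd1, chr2:74762001-74763000, from 11.03% to 1.83% (−9.19 points, adjusted p = 0.0428, exact test).

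Genes that act with or on Hox genes were taken as 2 lists. The 9 TALE cofactors (genes whose proteins bind DNA together with Hox proteins) went from 70.2% to 77.7% in the median, and 8 were higher by the test, with 66.5% of all genes, and none lower. Of 25 regulators of Hox genes (Polycomb and Trithorax genes, retinoic acid receptors, Cdx genes, Gdf11 and Ctcf), 19 were higher and 2 lower, where the shares of all genes are 66.5% and 2.80%, with a median of +5.58 points. Rara, a retinoic acid receptor, went from 42.9% to 62.1%, and Cbx2, a Polycomb gene, from 49.9% to 64.2%. Ring1, a Polycomb ubiquitin ligase, went the other way, from 52.0% to 38.4% (−13.5 points), as did Men1, from 56.8% to 49.1%.

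The ParaHox genes, sisters of the Hox genes outside the clusters, shared the low levels only in part. Gsx1 (1.69% and 2.67%), Cdx2 (2.34% and 3.10%) and Pdx1 (4.73% and 6.48%) were low and did not pass the test. Gsx2 went from 10.1% of 445 calls to 21.4% of 378 calls (+11.3 points, adjusted p = 2.195e-05, Benjamini-Hochberg, Fisher exact test), and Cdx1 from 65.8% to 71.1%. By this test 2 of the 5 were higher, against 66.5% of all genes.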

How the data were processed

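The authors aligned WGBS reads to GRCm38 with BSMAP 2.74 (unique best hits; CASAVA is also named in their processing notes) and deposited, for each CG cytosine and strand, counts of methylated calls and of all calls, without normalization. Removal of duplicates is not given in the sources used here. Levels were methylated over all calls, pooled over GENCODE M21 gene windows (2 kb upstream of the start to the gene end), their parts, cluster regions, 1 kb tiles and 200 bp bins (at least 4 CG cytosines, both strands counted, and a mean of 4 reads per cytosine). The labels name the genotype of each library. Features with at least 20 calls in each library entered Fisher's exact test (2-sided), adjusted after Benjamini and Hochberg across the genome. Named genes were, per cluster, those with the largest and smallest window difference, promoters that were lower or differed by 10 points, and CG-DMRs. Annotated Hox genes other than the 38 are not reported here, and a flank can hold one. The members and lists were chosen with earlier results of these data known. Code (numba 0.67.0, scipy 1.17.1 and numpy 2.4.6 in Python 3.11.15; figures with matplotlib 3.10.9) was tested on simulated data. Other assays of the study were not analysed here.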

Additional observations from a re-analysis of the deposited data

How the results depend on the processing

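Of 91 values recomputed under other settings, 62 kept their direction and, where tested, their side of the threshold, or as counts stayed within 1.5 times. Some of these still differed in size: the union of the windows differed by 0.15 points on the plus strand, and flanks minus span had an interval of 1.19 to 3.21 points with spans taken to the outermost annotated Hox genes. With cytosines of at least 4 calls in each library, the HoxC difference was −0.36 points, flanks minus span 0.70 with an interval that includes 0, and anterior minus posterior −0.0478, 1 window (Hoxa2) and 1 body (Hoxa2) were lower by the test, and neither a promoter (0) nor a 1 kb tile (0) was. On the minus strand alone HoxB differed by 0.64 points (not past the threshold), HoxC by −0.0548, flanks minus span was 0.61 and anterior minus posterior 1.35, with an interval above 0. On the plus strand alone HoxD differed by 0.28 points, anterior minus posterior was −0.25 and valley edge minus core 0.41. Without cytosines of more than 30 calls HoxD differed by 0.78 points and no longer passed. Flanks of 10 kb gave 0.55 points in HoxA, 0.48 in HoxD and 0.27 for flanks minus span, none past the threshold, and flanks of 50 kb gave 4.37 in HoxA, 1.959 in HoxB, 1.10 in HoxC and 3.04 in HoxD, all past it. Valley edge minus core was 0.21 with valleys from WT alone, 0.0070 at a level of at most 10% and −1.12, with an interval below 0, at 20%. With at least 100 calls 0 promoters were lower, and with at least 50 calls 1 tile was. Principal starts gave a median window difference of −0.41 points. Hyper CG-DMRs numbered 4 above 20 points, 0 above 60 points and 0 at 10 reads per cytosine, and 1 hypo CG-DMR appeared at 1 read per cytosine. The cause of these moves was not tested. The tile settings were added after the data were seen.

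No paired analysis was possible because each genotype has 1 library, and for the same reason leaving out a replicate was not possible. The depth, 2.55 to 3.07 calls per cytosine in the median Hox window, limits single promoters to differences of several points, and the counting intervals hold no spread between animals. A genotype difference and a difference between these 2 cultures cannot be told apart.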

Other observations

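Genes at the borders of the clusters were of 2 kinds. Evx1 (6.82% in WT and 7.67% in TCKO) and Evx2 (5.90% and 5.05%), homeobox genes next to the posterior ends of HoxA and HoxD, had levels in the range of the Hox genes and did not pass the test. Of 12 bordering genes tested, 10 were higher in TCKO and 0 lower, where the shares of all genes are 66.5% and 2.80%, with a median over the 13 measured of +6.17 points. Hnrnpa3 went from 45.6% to 59.4%, Skap1, beyond Hoxb1, from 69.4% to 77.4%, and Mtx2, beyond Hoxd1, from 79.1% to 88.2%.

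The noncoding genes in the clusters did not enter the adjusted test, which covered protein-coding genes. The median difference of the 17 measured was +0.069 points, and 9 were higher in TCKO. Hotair, a long noncoding RNA gene of HoxC, read 7.53% and 10.2%, and Hottip, beyond Hoxa13, 5.96% and 7.19%. The microRNA genes Mir196a-1 (7.05% and 1.62%), Mir10b (14.3% of 238 calls and 7.32% of 164) and Mir615 (4.39% and 0.901%) were lower in TCKO. These were the largest losses among the 17 and rest on few methylated calls: 22 and 4, 34 and 12, and 22 and 3. Of the other microRNA genes, Mir196a-2 read 3.69% and 3.76%, Mir10a 5.97% and 5.22%, and Mir196b 6.73% and 8.56%. Halr1 had the highest level, 66.8% and 73.9%. Many of these genes overlap Hox windows, so their values are not independent of them.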
